A study of Gallus gallus with 12 samples.

Results

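The data described here are the 6 RNA sequencing libraries made by laser capture microdissection (LCM) from 3 chick embryos, a node library and a lateral library from each embryo, out of 12 libraries in the series. The Organiser of each embryo had been marked with a fluorescent label as gastrulation closed, and the embryos then grew to 8 somites (embryo 1) or 9 somites (embryos 2 and 3). They were fixed in modified methacarn and cut in paraffin, and the laser took the fluorescent cells still in the Organiser (node) and the neighbouring ectoderm and mesoderm (lateral), that is neural plate and mesoderm leaving the midline. Total RNA of 1 to 7 ng was amplified with the SMARTer low RNA kit, per the labels. Of 13106 genes in the table of read counts, 9060 had a mean of 10 or more over these 6 libraries and were tested. The smallest mean kept was 10.0 and the largest left out was 9.83. The other 6 libraries came from 3 embryos dissected by hand while alive (manual), and serve here for the shared estimate of spread and for a test of difference between methods. All embryos carried the label, and no unlabelled or untreated embryo was analysed here.

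Hensen's node is the organiser of the bird embryo, a group of cells at the front of the primitive streak that lays down notochord, the floor of the neural tube and part of the somites as it retreats along the axis. By the somite stages it sits inside the tail-end growth zone, where FGF and Wnt signals are strong and where the factor Brachyury (TBXT, listed as T in the table) marks cells entering the axis. The tissue beside it holds neural plate and early paraxial mesoderm, bordered by surface ectoderm.

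Before any result was read, the node library of LCM embryo 2 was checked for reads shared with the manual lateral library of embryo 1. A total of 104 genes had 100 or more counts in that manual library and 0 counts in every library outside its embryo other than LCM node 2, and 100 of the 104 were counted in LCM node 2. Their counts in LCM node 2 were a median of 3.45% of those in the manual library (quartiles 2.62% and 4.44%). The ratio of the sums was 6.22%, and 3.52% without DCDC2B, which had 842 counts in LCM node 2 and 159 in the manual library. The same was seen with manual node 1, from the same embryo (60 of 70 genes found, median share 2.18%), and in the other direction, where all 10 such genes of LCM node 2 were found in manual lateral 1. Apart from these 3 pairs, 94 ordered pairs of libraries from different embryos had at least 5 such genes, and the highest share of genes found among them was 56.2%. That was for genes of LCM lateral 3 found in manual lateral 2 (9 of 16, median share 0.395%), with 6 of 14 in the other direction. Genes of manual node 3 were found in LCM node 3 for 6 of 11 (median share 0.546%). Counts shared by these libraries were not subtracted.

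Applied to every gene, the median share matched 1065156 counts, 4.84% of LCM node 2, and lowered the genes detected there from 10011 to 8179. Low counts were affected most often, but not alone. Of 2796 tested genes with 1 to 50 counts in LCM node 2, the share matched 50% or more of the count in 2105 (75.3%), against 509 of 5623 genes with more than 50. The shared count is therefore given below, at the median share, where it made up 5% or more of a printed LCM node 2 count. Directions are counted only where they hold with and without it. For RBP4, the retinol carrier of plasma, all 2280 counts of LCM node 2 were matched, and the other 5 LCM libraries held 5 to 13. The same was true of all 385 counts of the heat shock gene HSP70, all 995 of the glucose transporter SLC2A3, all 161 of the fibrinogen chain FGG and all 387 of SNAI1, a repressor of epithelial genes.

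**Figure D1:**
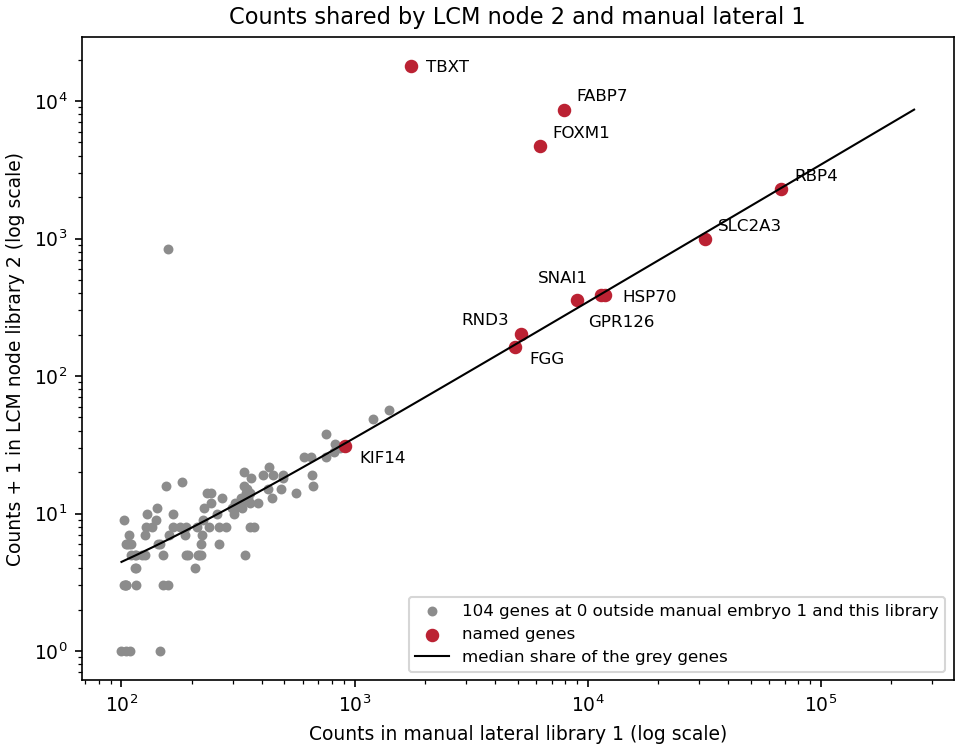
Counts in LCM node library 2 plus 1 (vertical, log scale) against counts in manual lateral library 1 (horizontal, log scale); grey points are the 104 genes at 0 outside manual embryo 1 and LCM node 2, red points are named genes, and the line is the median share of 3.45%. RBP4, SLC2A3, SNAI1, HSP70, GPR126, RND3, FGG and KIF14 lie near the line, whereas TBXT, FABP7 and FOXM1 lie far above it.

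Total counts in the 6 libraries ran from 21139477 to 25972879, and 7235 to 10011 genes were detected per library. Detection was patchy. Of the tested genes, 5289 were counted in all 6 libraries, 1476 were at 0 in 3 or more and 263 were counted in a single library. The common coefficient of biological variation was 117% in the fit of 12 libraries and 136% in the 6 LCM libraries alone. The median node minus lateral difference was 0 in embryos 1 and 3 and 0.78 (log2) in embryo 2, where subtracting the shared counts brought it to 0.03. The median log2 fold change over all tested genes was 0.27, or 0.06 after subtraction and 0.12 with another scaling (median-of-ratios factors), and single values below are to be read against it.

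Node against lateral tissue, paired by embryo, asks which transcripts set the marked Organiser cells apart from their neighbours. With edgeR's quasi-likelihood test and Benjamini-Hochberg adjustment over the 9060 genes, 1 gene (0.011%) passed an adjusted p of 0.05 in the fit of 12 libraries. With p under 0.05 before adjustment, 485 genes remained in this fit, against 453 if p-values were uniform. That number also depended on the model. It was 265 in edgeR with the 6 LCM libraries alone and 897 in edgeR without pairing by embryo. Limma voom gave 754 and DESeq2 1822. Of the 485, 355 were higher and 130 lower in the node, a split that was 264 and 238 after subtraction and 301 and 184 with median-of-ratios factors. It turned to 173 higher and 306 lower with the summed share subtracted, and to 220 and 246 without embryo 2, so no lean to either side held in every setting. The number of calls depended on the model. It was 6 (0.0662%) with the 6 LCM libraries alone, and the same 6 genes (0.0662%) passed there after subtraction, whereas limma voom called 0 and DESeq2 called 878. In bulk tissue, fewer cells of a type and less RNA per cell cannot be told apart, here and for every gene below.

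Direction was more often shared towards the node than away from it. Node values exceeded lateral values in all 3 embryos, with and without subtraction, for 1037 genes (11.4% of those tested), and were below them for 666 (7.35%). The lean depended on the shared reads: as counted there were 1269 higher and 666 lower genes, and after subtraction 1037 and 839. On log2 CPM with TMM scaling, by which overlap is judged throughout, the 3 node values lay wholly above the 3 lateral values for 420 genes (4.64%) and wholly below for 254 (2.8%). As counted, 44 tested genes had reads in every node library and 0 in every lateral library, and 7 showed the reverse. Shared counts in node 2 were left in here, so these genes need not be among those above. WNT11, described below, lost its direction in embryo 2 after subtraction.

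The labelled tissue was checked against defining genes. TBXT, the Brachyury factor of streak, node and notochord, had node counts of 35422, 17999 and 26284 in embryos 1, 2 and 3 and lateral counts of 18038, 3924 and 10982. The node was higher in each embryo, while lateral 1 came close to the lowest node value and overlapped it after subtraction. CFC1, the Cripto-family co-receptor for Nodal, had 873, 17 and 228 counts in the node, 10 of the 17 being shared, against 4, 0 and 0. CHRD, the BMP antagonist chordin, was counted in the node of embryos 2 (78) and 3 (543) and had 1, 0 and 0 lateral counts. LEFTY2, a Nodal inhibitor, was counted only in node 1 (418). SHH, the notochord and floor plate ligand, and GSC, an early organiser homeobox gene, were at 0 in all 6 libraries, and the notochord homeobox gene GNOT1 was counted on both sides, with 333, 810 and 4581 in the node and 1251, 882 and 2682 in lateral tissue. On the lateral side, the dorsal neural gene PAX-7 had 284, 118 and 743 counts against 0, 1 and 0 in the node, the single count being shared. Globin genes stood out in 1 library: HBAA, HBAD and HBE had 11672, 2541 and 3144 counts in lateral 2 and no more than 4 in any other. The part of blood in other differences of embryo 2 was not tested.

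GPR126, an adhesion receptor known from zebrafish and mouse for its role in myelination by Schwann cells, was the gene that passed in the 12-library fit. The file places it on chromosome 3 at 52145374 to 52255811, in a genome build not given in the sources used here. Its node counts were 2186, 358 and 1903 and its lateral counts 4, 4 and 3. The groups did not overlap. GPR126 rose by a log2 fold change of 8.41 ± 1.03 (SE, adjusted p = 0.0472), with 56.6 ± 31.7 CPM in the node and 0.146 ± 0.055 in lateral tissue (SD, n = 3 embryos). In embryo 2, 312 of the 358 counts were matched by the shared reads, with 237 to 401 over the quartiles of the share, so that embryos 1 and 3 carry the difference. The groups stayed apart at the median share, but the upper quartile matched more than node 2 held. The direction of GPR126 in embryo 2 is therefore not secure. After subtraction the fold change was 7.58 ± 1.38 and the call was lost (adjusted p = 0.312). With embryo 1, 2 or 3 left out in turn, no gene passed, the smallest adjusted p of edgeR being 0.205, 0.181 and 0.0717.

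The fit of the 6 LCM libraries alone called 6 genes, each of which kept its call after subtraction, and none of which passed in the 12-library fit. The 6-library fit left 2 degrees of freedom per gene, against a weight of 48.8 for the spread pooled over genes. Its SE and p therefore rest mainly on the pooled spread, and do not measure how far the 3 embryos agreed. TBXT (chromosome 3, 42233586 to 42241528) rose in the node by 1.52 ± 0.31 (adjusted p = 0.0208). Its differences of log2 CPM were 0.579, 2.857 and 1.482 in embryos 1, 2 and 3. In that fit FOXM1 (chromosome 1, 75109437 to 75119160), a transcription factor that drives genes of the G2 and M phases, also rose. It had 6024, 4683 and 5920 counts in the node, nearly equal in the 3 embryos, and 19, 35 and 1618 in lateral tissue. The rise was 6.21 with an SE of 1.2 (adjusted p = 0.0124), and 215 of the counts of node 2 were shared.

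The other 4 genes fell in the node in that fit. FABP7 (chromosome 3, 60674294 to 60677648), the fatty acid binding protein of neural progenitors, had 8143, 8660 and 26409 counts in the node and 17252, 32878 and 76210 in lateral tissue. The node held less in every embryo, with differences of log2 CPM of -1.48, -1.26 and -1.31, although levels overlapped between embryos. FABP7 fell by 1.47 ± 0.24 (log2, adjusted p = 7.74e-04). GAPDH (chromosome 1, 76434647 to 76437498), a glycolytic enzyme, had 627695, 520611 and 543045 counts in the node and 811528, 906935 and 794544 in lateral tissue. The node held less in every embryo, although scaled levels overlapped between embryos. Its differences of log2 CPM were uneven as counted, at -0.765, -0.141 and -0.326 in embryos 1, 2 and 3. In embryo 2 the difference was -0.466 after subtraction. GAPDH fell by 0.53 ± 0.07 (adjusted p = 5.79e-07), while the fit of 12 libraries gave -0.41 ± 0.20 (adjusted p = 0.847). RPSA, which encodes a protein of the small ribosomal subunit, fell by 0.37 ± 0.08 (adjusted p = 0.0208), and the gene has near-identical copies that the counting could mix. Its differences of log2 CPM were -0.402, -0.05 and -0.28 in embryos 1, 2 and 3 as counted. After subtraction the difference in embryo 2 was -0.418. HBAA, an alpha globin, was called on the 11672 counts of lateral 2, with 0 in the other 5 libraries, so that its call rests on 1 library.

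**Figure D2:**
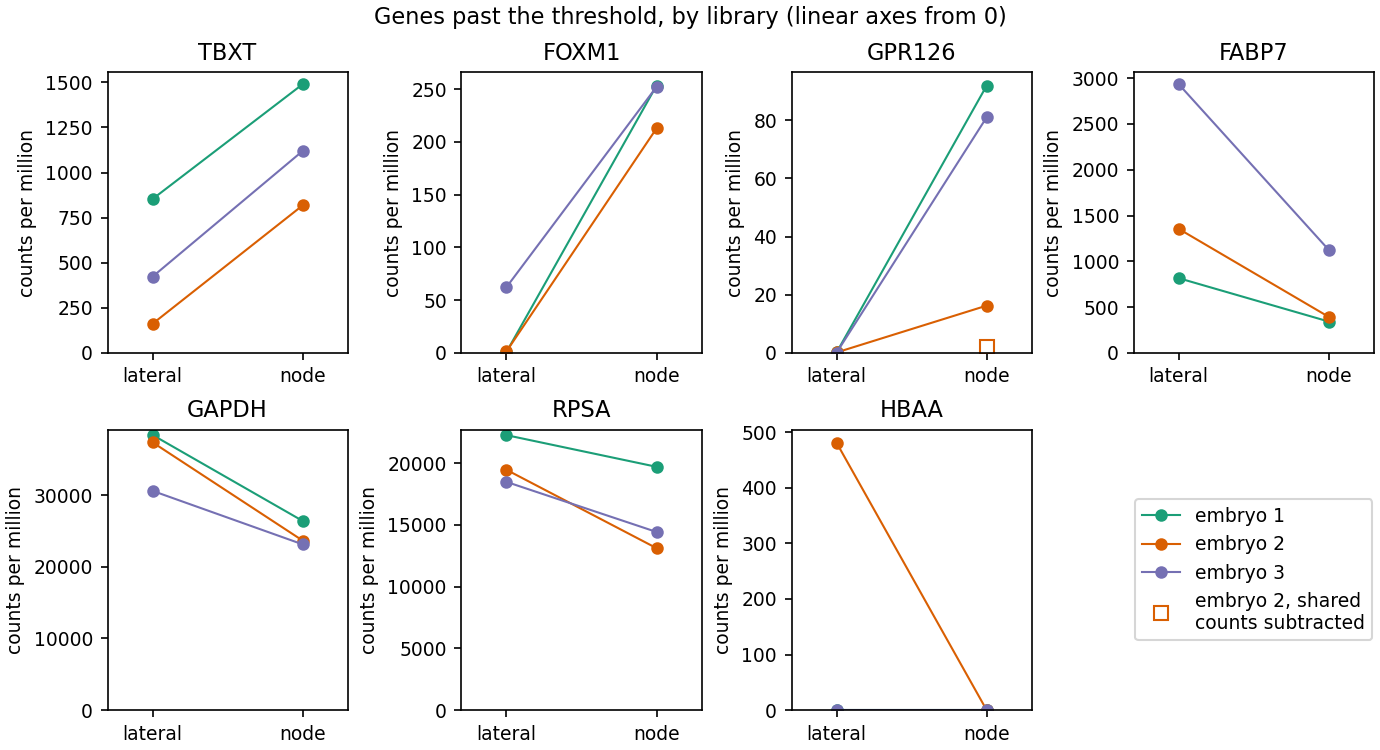
CPM from total counts (vertical, linear from 0) in the lateral and node library of embryos 1, 2 and 3, joined by embryo, for the 7 genes past an adjusted p of 0.05 in the 12-library fit (GPR126) or the 6-library fit (the others). As counted, TBXT, FOXM1 and GPR126 are higher in the node of every embryo and FABP7, GAPDH and RPSA lower, and HBAA is counted in lateral 2 alone. The open square shows GPR126 in embryo 2 with shared counts subtracted at the median share, and its direction in that embryo is not secure.

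A total of 20 genes with a symbol were named as higher in the node because the 3 embryos shared the direction with and without subtraction and their p was smallest among 775 such genes with enough counts (p from 5.21e-06 to 0.00397). A further 10 lower genes were named from 528 in the same way (p from 4.53e-04 to 0.00502). The rule fixes their directions, which are therefore no finding. Apart from GPR126, none passed after adjustment (adjusted p from 0.405 to 0.847), so the values are descriptions.

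Several of the higher genes act outside the cell or at its surface. FSTL1, a secreted follistatin-like protein that binds BMPs, had 890, 1057 and 1158 counts in the node and 21, 180 and 161 in lateral tissue. These groups were well separated, with little spread among the nodes, and the log2 fold change was 3.73 ± 0.87. NRP1, a co-receptor for semaphorins and VEGF, had 2891, 433 and 276 counts in the node and 0 in every lateral library. Node 1 held most of these counts. IL1R1, an interleukin receptor, had 1757, 173 and 299 counts against 0, 3 and 0. Of the 173, 149 were shared, or all of them at the upper quartile of the share (192 matched). The difference therefore rests on embryos 1 and 3, with most counts in node 1, and its direction in embryo 2 is not secure. APLP2, of the amyloid precursor family, differed least in size and was counted deeply, with 56532, 36078 and 35399 counts in the node and 22600, 21973 and 27863 in lateral tissue (0.96 ± 0.26).

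A pair of plasma carriers was among the 20. TF, the iron carrier transferrin, had 1598, 4428 and 9252 counts in the node and 127, 3548 and 1171 in lateral tissue, with overlap between the groups and 566 of the 4428 shared (2.51 ± 0.56). APOH, a phospholipid-binding plasma glycoprotein, had 1952, 452 and 6689 against 4, 4 and 963, and 231 of the 452 were shared. Both are liver proteins in the adult and are made by endoderm derivatives. Other plasma genes of the endoderm list had few counts beyond the shared reads: the transport protein gene TTR had 0, 166 and 3 node counts with 155 shared, and APOA1 had 4, 138 and 1 with 128 shared. With 1, 0 and 0 lateral counts, APOA1 was, beside TF, the other endoderm member higher in all 3 embryos. Albumin (ALB) was counted in lateral 3 (275) and at no more than 2 elsewhere. The endoderm list as a whole (14 tested) had 10 positive values, or 9 after subtraction, but 8 of its members had a lateral mean under 10 counts. These 8 were tested only because of their node counts, taken before subtraction. For FGG and APOA1 most of those node counts were shared, and without them neither gene would have reached the minimum mean. The summed level of the list, as counted and TMM-scaled, was 626, 1265 and 792 CPM in node libraries and 1036, 1246 and 827 in lateral libraries. The node 2 sum includes shared counts, among them all 2280 of RBP4 and 566 of TF, so it is no measure of endoderm there. What part endoderm cells played in TF and APOH was not tested.

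Other higher genes work inside the cell. OBFC1, a subunit of the telomere-capping CST complex, had 882, 1954 and 526 counts in the node and 3, 1 and 1 in lateral tissue. The gap was wide in all 3 embryos and 15 node 2 counts were shared (9.31 ± 1.70). ESRP2, which drives epithelial splice forms, had 2692, 6603 and 2620 against 453, 567 and 994 (2.64 ± 0.58), with 890 of the 6603 shared. It was counted in every library, and the groups stayed apart. DPYS, an enzyme of pyrimidine breakdown, had 2081, 1108 and 1808 against 9, 1 and 1, with 94 of the 1108 shared, and TMTC3, which adds mannose to cadherins in human cells, had 6376, 3667 and 4258 against 1501, 22 and 270, with 351 of the 3667 shared. SLC25A12, the mitochondrial aspartate and glutamate carrier, had 1090, 283 and 1603 against 1, 1 and 287, and 43 of the 283 were shared.

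In some of the 20, shared counts made up most of node 2. GDPD5, a phosphodiesterase that cleaves membrane anchors, had 3060, 77 and 2330 counts against 0, 1 and 0, and 25 of the 77 remained. FAM175B, a scaffold of a deubiquitinating complex, had 555, 68 and 2670 against 3, 0 and 346, and 12 of the 68 remained. KBTBD8, an adaptor of a cullin ubiquitin ligase, had 69, 234 and 3800 against 1, 0 and 751, and 24 of the 234 remained. At the upper quartile of the share, 72 counts were matched for FAM175B and 270 for KBTBD8, more than node 2 held. The direction of FAM175B and KBTBD8 in embryo 2 is therefore not secure. The beta tubulin gene TUBB6, whose reads can be mixed with those of other tubulins, had 389, 2538 and 5183 against 11, 2 and 138, with 1473 of the 2538 shared. C20H20ORF24 and PTGR1, a prostaglandin reductase, were counted in all 6 libraries, with fold changes of 1.95 ± 0.48 and 2.29 ± 0.61. TBC1D8, of the Rab-regulating TBC family, was at 0 in every lateral library and at 17, 551 and 818 in the node.

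**Figure D3:**
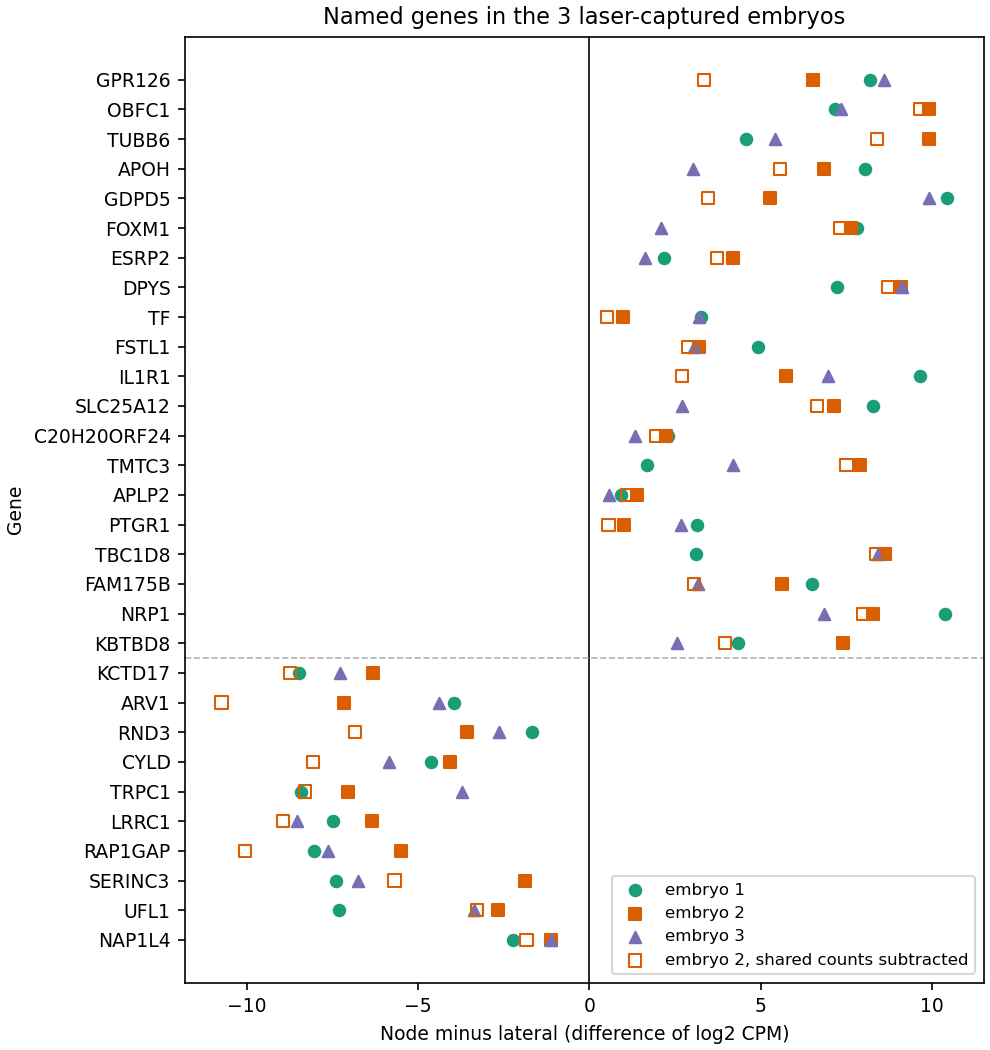
Node minus lateral difference of log2 CPM (horizontal) in LCM embryos 1 (circles), 2 (squares) and 3 (triangles) for the 20 genes named as higher and, under the dashed line, the 10 named as lower. Open squares show embryo 2 with shared counts subtracted, which lowers GPR126 from 6.51 to 3.34 and moves the lower genes further from 0.

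Among the 10 lower genes, counts in the node were often near 0, and those of node 2 were mostly shared. KCTD17, an adaptor of cullin ubiquitin ligases, had 2, 6 and 1 counts in the node, all 6 shared, and 1130, 936 and 610 in lateral tissue. The difference was large in every embryo, with differences of log2 CPM of -8.47, -6.33 and -7.26 (-8.74 in embryo 2 after subtraction). CYLD, a deubiquitinase of NF-kappaB signalling, had 127, 21 and 4 against 2412, 588 and 424, with all 21 shared. LRRC1, a leucine-rich repeat protein related to Scribble, had 1, 7 and 0 against 430, 1079 and 1049. RAP1GAP, which switches off the GTPase Rap1, had 0, 31 and 4 against 442, 2299 and 1480. For both, all node 2 counts were shared.

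RND3, a small GTPase that loosens the contractile cytoskeleton, was counted in all 6 libraries, at 211, 203 and 474 in the node and 517, 3854 and 3453 in lateral tissue. The groups did not overlap, and 179 of the 203 were shared (-2.64 ± 0.64). NAP1L4, a histone chaperone, had the deepest counts of the 10, with 3678, 1812 and 3261 against 13106, 6293 and 8360, 475 of the 1812 being shared (-1.50 ± 0.43). Every embryo showed the same direction, at -2.23, -1.14 and -1.14 in log2 CPM. The other 4 were TRPC1, a cation channel, UFL1, the ligase of the ubiquitin-like protein UFM1, SERINC3, a membrane protein, and ARV1, a lipid-homeostasis protein of the endoplasmic reticulum. Their fold changes were -7.39 ± 1.93, -4.28 ± 1.19, -6.16 ± 1.71 and -6.20 ± 1.49.

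Gene lists for the tissues and pathways around the node are described by their members. Some genes belong to more than 1 list, such as FGF18 (axial progenitor and FGF) and CFC1 (organiser, and BMP and Nodal). The shares of such lists are therefore not separate results. No member of any of the 25 lists passed in the 12-library fit. A gene nearly absent from 1 side passes the filter through the other alone, which fixes its direction: 9.40% of all tested genes had a lateral mean under 10 counts and 9.76% a node mean under 10. Of the 7 tested members of the organiser and notochord list, 4 passed through the node and 1 through lateral tissue in this way, so its direction is not counted here. TBXT and CFC1 were the 2 members higher in all 3 embryos. The axial progenitor and stem zone list (21 tested) had 14 positive values and a median of 0.61, and 6 members (28.6%) were higher in all 3 embryos against 11.4% of all genes, while none was lower in all 3. Beside TBXT these were SALL1, WNT3A, FGF3, FGF4 and FGF18. FGF4 was the 1 member of this list with a lateral mean under 10 counts, so its direction was fixed by the filter. SALL1, a zinc finger factor of early tissues, had 24054, 37512 and 41845 counts in the node and 13304, 24288 and 36664 in lateral tissue, higher within each embryo but overlapping across them (0.72 ± 0.30). The caudal genes CDXB and GREB1 gave 0.12 ± 0.42 and -0.69 ± 0.41, and CDXB changed sign with the scaling and with the libraries in the fit. The progenitor factor SOX2 was at 5, 520 and 0 in the node and 137, 3 and 0 in lateral tissue, too patchy to give an order.

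The FGF pathway list had the highest share in 1 direction among the signalling lists: 8 of 24 tested members (33.3%) were higher in the node of all 3 embryos and none was lower. The median was 1.65, or 1.56 after subtraction, and 4 of the 24, FGF4 among them, had a lateral mean under 10 counts. Among the ligands, FGF18 had 1094, 1028 and 1151 counts in the node and 6, 27 and 423 in lateral tissue (5.13 ± 2.17), and FGF10 had 735, 956 and 1338 against 0, 150 and 213 (4.58 ± 1.94). FGF4 had 227, 407 and 322 against 13, 0 and 1. For these 3 ligands every node count lay above every lateral count, and shared counts in node 2 were 6, 17 and 0. FGF3 had 8607, 3854 and 3991 against 4545, 415 and 2419, and FGF19 had 3570, 5499 and 4831 against 2669, 497 and 1612. FGF3 overlapped because lateral 1 was high, and FGF19 did not overlap. FGF8, the best known ligand of the tail end, was counted on both sides, at 1983, 4656 and 4341 against 1817, 2177 and 3935 (0.61 ± 0.69). Among genes that FGF signalling turns on or that restrain it, the ETS factor ETV4 had 515, 1413 and 1221 against 10, 1 and 541, and the inhibitors SPRED1 and SPRED2 were higher in each embryo. The inhibitor SPRY2 and the inhibitory receptor IL17RD had positive and negative embryos, with fold changes of -0.08 and -0.09.

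In the BMP and Nodal list, 7 of 22 members (31.8%) were higher in all 3 embryos and 1, the inhibitor SMAD6, was lower. The median was 1.03, or 0.70 after subtraction, and 4 of the 22, CFC1 among them, had a lateral mean under 10 counts. BAMBI, a decoy receptor that dampens BMP signalling, had 3268, 6480 and 4313 counts in the node and 748, 2135 and 2696 in lateral tissue, without overlap (1.63). The ligand BMP5 had 1369, 1741 and 594 against 1, 0 and 183. The activin and Nodal receptors ACVR2A and ACVR2B were also higher in each embryo, ACVR2A with 4080, 66 and 1219 against 8, 5 and 867, 29 of the 66 being shared. BMP4 had no common direction, at 14, 215 and 74 in the node and 237, 2 and 2 in lateral tissue.

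In the Wnt list, 4 of 39 members were higher and 4 lower in all 3 embryos (10.3% each), the first near the background share and the second above the 7.35% of all genes. The higher ones were the ligand WNT3A, the nuclear effector LEF-1, the secreted Wnt inhibitor NOTUM and the polarity gene PRICKLE1. LEF-1 had 7723, 9368 and 8254 counts in the node and 4331, 2858 and 4177 in lateral tissue, and WNT3A had 6521, 5048 and 4064 against 1678, 3547 and 2472. Neither gene overlapped between groups. The lower ones included the receptors LGR4, at 1, 340 and 2 against 809, 1857 and 453 with 24 of the 340 shared, and ROR1, at 57, 9 and 11 against 1694, 788 and 993, with all 9 shared. WNT11, a ligand of movement and polarity, was at 1310, 3 and 532 in the node and 0 in lateral tissue. Its 3 counts in node 2 were shared, so that embryo 2 gave no direction.

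The remaining signalling lists had few members of 1 direction. Notch had 2 members higher and 2 lower of 16 (12.5% each), the receptor NOTCH2 with 649, 560 and 1052 against 31, 25 and 523 and the fringe gene LFNG being the higher ones. None of 11 Hedgehog members had 1 direction in all 3 embryos. Its receptor PTCH1 was at 0, 24 and 541 in the node and 0, 0 and 64 in lateral tissue. In the retinoic acid list 3 of 15 were higher in all embryos (20%), and of these ALDH1A1, a retinal-oxidising enzyme, had 202 of its 230 node 2 counts shared and at most 7 counts in each of the other 5 libraries. Of the 15, 4 had a lateral mean under 10 counts, ALDH1A1 among them. CYP26A1, which degrades retinoic acid, had 351, 700 and 2217 counts in the node and 1232, 1289 and 2182 in lateral tissue (-0.70 ± 1.23). RDH10, which makes retinal, had 233, 14 and 217 against 0, 1 and 0, with all 14 shared.

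Markers of neighbouring tissues split. Surface ectoderm had 4 of 9 members lower in the node of all 3 embryos (44.4%, against 7.35% of all genes) and none higher, but 5 of the 9 had a node mean under 10 counts and were tested only through their lateral counts. Keratin KRT8 had 0, 3 and 0 counts in the node, all 3 shared, and 155, 89 and 568 in lateral tissue. CLDN1, a tight junction claudin, was deeply counted on both sides, at 7982, 7592 and 9242 against 20400, 16240 and 18511, and its groups did not overlap (-0.98 ± 0.45). MSX2 and GATA2, factors of border and non-neural ectoderm, were the others, and GATA2 had 1, 768 and 1 lateral counts, so that embryos 1 and 3 rest on a single count. As counted, with shared counts left in node 2, the summed level of the list was 461, 698 and 519 CPM in the node. In lateral tissue the list summed to 1117, 893 and 732 CPM. Its share in the differences of other genes was not tested.

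Of the 8 neural plate genes, 3 were lower in the node of all 3 embryos (37.5%) and 2 were higher (25%). FABP7, PAX-7 and PAX3 were lower, PAX3 with 241, 970 and 1554 counts against 280, 6002 and 2531. PAX-7 was the 1 member with a node mean under 10 counts. It was tested only through its lateral counts, which fixes its direction. The neural cadherin CDH2 was among the higher ones, at 8349, 6357 and 14650 against 3453, 3923 and 7274 (1.16 ± 0.43). Presomitic mesoderm had 3 of 13 higher (23.1%) and 1 lower. SNAI2, a repressor of epithelial genes also used by neural crest, had 9003, 7189 and 2778 in the node and 1283, 1827 and 2097 in lateral tissue, without overlap (1.91 ± 0.59). The presomitic master factors TBX6 and MSGN1 had 4412, 52 and 2705 against 2931, 0 and 184, and 1103, 33 and 204 against 0, 0 and 342. Shared reads matched all 52 TBX6 counts and 22 of the 33 MSGN1 counts in node 2. The somite list had 2 tested members, MYF5 and EYA1, at 0 in every lateral library. Lateral plate (5 tested), blood and endothelium (9) and Hedgehog genes had no member with 1 direction, and of the 9 heart and muscle genes TNNC1 alone was lower.

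Genes of cell adhesion had 5 of 24 members higher in all 3 embryos (20.8%) and 1 lower, CLDN1. The higher ones were CDH2, SNAI2, the neural catenin CTNND2, with 8414, 3287 and 6601 counts against 907, 1247 and 3703 (1.98 ± 0.60), and the desmosome genes DSP and PKP2. DSP had 954, 217 and 1386 against 2, 0 and 1502, with 145 of the 217 shared. Its direction in embryo 3 rests on the scaling, the raw count there being lower in the node. SNAI1 had a small p (0.00114, unadjusted, edgeR) with 215, 387 and 589 against 3, 26 and 144. However, all 387 counts of node 2 were shared at the median share, and 298 at its lower quartile. Subtraction at the median share turned its difference in embryo 2 from 4.44 to -3.69, so its direction there is not secure. In the matrix list 2 of 27 were higher (7.41%, beside 11.4% of all genes), the link protein gene HAPLN1 and the proteoglycan gene VCAN. HAPLN1 had 8725, 16450 and 6645 against 4900, 2988 and 3368, with 870 of the 16450 shared, higher within each embryo with some overlap across them (1.56 ± 0.66).

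In the glycolysis list 7 of 25 members (28%) were lower in the node of all 3 embryos and none was higher. The median of the list was -0.19, or -0.40 after subtraction. Beside GAPDH these were the enzymes ENO1, PGK1, TPI1, LDHA and PFKP and the lactate carrier SLC16A1. LDHA had 13335, 30584 and 34464 counts in the node and 10397, 49551 and 80548 in lateral tissue. Its direction in embryo 1 therefore rests on the TMM scaling. ENO1 had 110339, 75769 and 152284 counts in the node and 118086, 182786 and 204960 in lateral tissue (-0.44 ± 0.17), with 4480 of the 75769 shared. PFKP, a phosphofructokinase, had 955, 2340 and 1792 against 1953, 5966 and 7047 (-1.29 ± 0.60). LDHB, the other lactate dehydrogenase subunit, was at 127757, 145158 and 127435 against 115565, 147221 and 142301, with no common direction. Of 34 cell cycle genes, 7 were lower (20.6%) and 3 higher (8.82%). KIF14, a kinesin of cytokinesis, had 12, 30 and 48 against 738, 832 and 892, with all 30 shared, and the centromere motor CENPE had 754, 3184 and 1341 against 4091, 5067 and 5519. The replication gene TOP2A and the kinesin KIF11 were higher in each embryo, and MKI67 and PCNA had no common direction.

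Cytosolic ribosomal proteins had 31 positive and 35 negative values of 66, which became 17 and 49 after subtraction, so their balance depended on the shared reads. Of the 66, 5 were lower and 2 higher in all 3 embryos (7.58% and 3.03%). Of 9 mitochondrial transcripts 2 were lower and 1 was higher. In the list of handling and stress genes, 1 of 17, the chaperone DNAJA1, was higher in all 3 embryos (5.88%) and none was lower. The cilium list had 3 of 22 higher (13.6%), CAPSL, PKD2 and SPAG6, of which PKD2 and SPAG6 had at most 9 counts in nodes 2 and 3. CAPSL had 3, 360 and 2323 counts against 2, 1 and 20, and PKD2 and SPAG6 were at 0 in every lateral library. All 3 were among the 6 members with a lateral mean under 10 counts. They were tested only through the node, so their direction is no finding. Of 9 neural crest genes 2 were higher, SNAI2 and SOX9, and 2 lower. Of the 9, 3 had a node mean under 10 counts, PAX-7 among them, which was 1 of the lower genes.

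**Figure D4:**
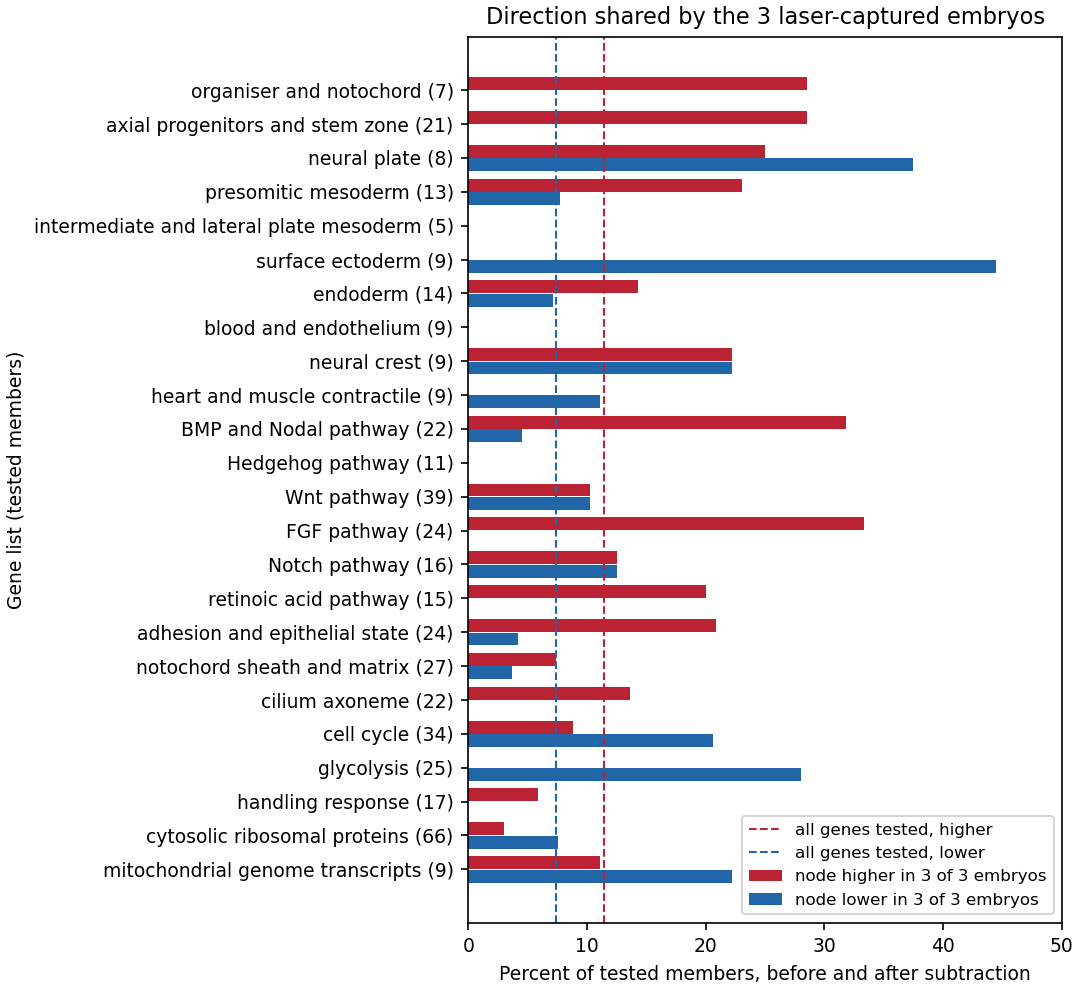
Percent of the tested members of each list (number in brackets) that were higher (red) or lower (blue) in the node of all 3 LCM embryos, with and without the shared counts; dashed lines give the same percents over all 9060 genes, 11.4% and 7.35%. FGF (33.3%), BMP and Nodal (31.8%), axial progenitor (28.6%) and neural plate (25%) are among the lists beyond the red line. Surface ectoderm (44.4%), neural plate (37.5%) and glycolysis (28%) are among those beyond the blue line. Of the 9 surface ectoderm members, 5 were tested only through their lateral counts, as was PAX-7 of the neural plate list. FGF4 (axial progenitor and FGF), CFC1 (BMP and Nodal) and the higher cilium members were among those tested only through the node. The organiser list is drawn, but 4 of its 7 tested members passed the filter through the node alone. Some genes belong to more than 1 list.

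The manual embryos offered a comparison with the same design in fresh tissue. The test of the difference between the node effects of LCM and manual embryos called 0 of 9060 genes in edgeR, with 244 at an unadjusted p under 0.05. Limma voom also called 0, and DESeq2 called 250. Of the 1037 genes higher in 3 LCM embryos, 180 were higher in all 3 manual embryos, which is 17.4% of the LCM list, beside 11.1% of all tested genes higher in the manual embryos, and 17.9% of the manual list, beside 11.4% higher in the LCM embryos. Of the 666 lower genes, 99 were lower in all 3 manual embryos (14.9% of the LCM list, beside 11.9% of all tested genes, and 9.18% of the manual list, beside 7.35%). Of the 20 genes named as higher, 14 had a positive value in the manual embryos, where 47.5% of all genes did, and of the 10 named as lower 4 had a negative value, where 51.8% did. Before adjustment, 16 of the 20 and 10 of the 10 differed from their manual value at p under 0.05 in edgeR, a comparison their choice on the LCM values favours, and none did after it.

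Some named genes gave close values by both methods, and they were picked out here after their values were seen. APLP2 was 0.96 ± 0.26 in LCM and 0.96 ± 0.26 in manual embryos, CDH2 1.16 ± 0.43 and 1.2 ± 0.44, and ENO1 -0.44 ± 0.17 and -0.44 ± 0.17. TF was 2.51 ± 0.56 and 2.19 ± 0.54, and FABP7 -1.35 ± 0.39 and -1.12 ± 0.42. GAPDH was -0.41 ± 0.20 and -0.42 ± 0.20 in this 12-library fit. Other named genes had the opposite sign in manual embryos. Among those named as lower, KCTD17 was 1.091 ± 1.235 there, CYLD 0.867 ± 1.111, TRPC1 1.442 ± 1.446 and RAP1GAP 1.749 ± 1.964, each smaller than its SE. GPR126 was counted on both sides in manual embryos: manual node libraries held 9953, 10552 and 2230 counts and manual lateral libraries 9033, 703 and 1523. Its manual value was 1.53 ± 0.82 and the test of the difference from LCM missed the threshold (adjusted p = 0.738 in edgeR). FOXM1 was -0.15 ± 0.91 in manual embryos (adjusted p of the difference = 1 in edgeR).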

How the data were processed

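Node and lateral libraries were grouped by the labels, and replicates are separate embryos. The authors deposited raw read counts per Ensembl gene for 13106 genes, of which 11420 were named in the file and 30 more through a RefSeq gene table (GRCg7b) used for names only. Bowtie2 2.2.3 is named in the submitters' processing notes. The sources used here do not name the counter, the genome build or the strand setting, so overlapping genes, antisense partners and near-identical copies cannot be told apart. The deposited normalized table was not used.

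Counts were tested in R 4.3.3 with edgeR 4.0.16 (TMM, quasi-likelihood test), on genes with a mean of 10 or more counts over the 6 LCM libraries. Shared counts were not subtracted for this filter, so some genes passed it through them. The design had a block for each embryo plus a node term per dissection method over all 12 libraries (6 embryos), with Benjamini-Hochberg adjustment and calls at an adjusted p under 0.05. Fold changes are log2 with standard errors, and values for single embryos subtract log2 CPM (prior count 2) of the lateral from the node library. Alternatives were DESeq2 1.42.0, limma voom 3.58.1, other scalings and filters, the 6 LCM libraries alone, no block, each LCM embryo left out, and subtraction of the shared counts, for which the median share was chosen after seeing the data. The scripts were tested on simulated data. Pairs come from the same embryo by the labels. Deviations from the group means correlated at 0.07, 0.026 and 0.056 within embryos and at -0.057 to 0.006 between them.

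Genes were named by rule: those called, the 20 higher and 10 lower with the smallest p among genes of 1 direction in the 3 embryos with and without subtraction and with at least 10 counts in a library of each embryo, up to 3 members of each list by p, and the best known tissue genes. Members, lists and tests were chosen with earlier results of these data known. Total counts ran from 21139477 to 25972879, and amplified reads without molecular identifiers are not independent molecules. Some items are not reported here.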

Additional observations from a re-analysis of the deposited data

How the results depend on the processing

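The count of genes called for node against lateral tissue was 1 in the main setting and 1 with no replicate block. It was 6 with the 6 LCM libraries only and 6 there with the median share subtracted, 0 with the median or the summed share subtracted, 878 with DESeq2, 0 with limma voom, 0 with median-of-ratios (RLE) factors, 10 with no filter on low counts, 2 with filterByExpr, and from 0 to 0 with an LCM embryo left out. The difference between LCM and manual effects had 0 calls, but 250 with DESeq2. The share of manual lateral 1 counts found in LCM node 2 was 6.22% as a ratio of sums, and 3.46% with source genes at 200 or more counts. It was 3.45% as a median and 3.52% as a ratio of sums without DCDC2B. Of the 25 list medians, 13 moved by more than their SD between embryos in some setting. Of 111 genes followed, 7 turned sign in some setting, none of them called. CDXB (0.119) was -0.001 with the 6 LCM libraries, -0.02 there after subtraction, -0.153 after the summed share, -0.045 with DESeq2 and -0.045 with RLE factors, and from -0.017 to 0.272 with an embryo left out. EVX1 (0.251) was -0.103 with no block, -0.039 after the summed share, -0.024 with voom and from -0.218 to 0.833 with an embryo left out. GNOT1 (-0.176) was 0.325 with no block, 0.448 with voom and from -0.882 to 0.766 with an embryo left out. TEK (-2.196) was 1.436 with no block, 0.253 with voom and from -5.236 to 3.734 with an embryo left out. With an embryo left out, RPS24 ran from -0.034 to 0.612, CYP26A1 from -1.213 to 0.013 and SOX2 from -4.224 to 6.786. The causes were not tested. Patchy detection at 1 to 7 ng of RNA limits what a count near 0 can show.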
